A study of Triticum turgidum subsp. durum with 8 samples.

Results

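Seedlings of the durum wheat cultivar DBA Aurora whose parents had been through water-deficit and heat stress (WH) were compared with DBA Aurora seedlings from unstressed control parents (CG). The members are the 4 DBA Aurora small RNA libraries among the 8 of the series, 2 on each side, and they were paired by the treatment of the seedlings themselves. Each distinct miRNA sequence was counted once, and 596 of 1473 distinct sequences entered the comparison because their mean over the 4 libraries was 10 or more normalized counts. These 596 carried 99.8% of the normalized counts of DBA Aurora and belonged to numbered families or to the group of predicted miRNAs with no known family. Of 129 numbered families, 103 had a family total that averaged 10 or more over the 4 libraries. The other 877 sequences were below the limit. The nearest sequence inside it, tae-MIR9668-p3_1ss10TC, averaged 10.001 and the nearest outside, hvu-miR5049c_R-2_1ss6AC, averaged 9.95. Of the 596, 513 were above 0 in all 4 libraries and 83 were listed at 0 in at least 1.

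AuWH_C is DBA Aurora from WH parents and AuCG_C DBA Aurora from CG parents, both raised on complete nutrient solution. AuWH_N and AuCG_N are the same 2 seed groups raised on the solution without nitrogen. DBA Aurora is the tolerant genotype of the study, and the sensitive line L6 was treated in the same 4 ways (L6WH_C, L6CG_C, L6WH_N, L6CG_N). All seedlings grew in sand in 1 glasshouse regime, and shoots were taken at 3 weeks. Each library was made from the pooled RNA of 6 plants and is the only library of its condition, so spread among plants was not measured. In a pool of whole shoots, fewer cells of a type and less of an RNA per cell cannot be told apart. The parents and their stress were not sequenced, and the seeds came from an earlier experiment.

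Plant miRNAs are cut from hairpin precursors, in which either arm (5p or 3p) can give a mature strand, and they guide the slicing or repression of mRNAs with near-perfect complementarity. A few old families hold transcription factors and hormone receptors of development under control, while others answer to phosphate, nitrogen, copper, heat or drought. Mature strands also occur as isomiRs, variants with shifted ends or added 3′ bases. In the names used here L and R count bases added to or removed from the left and right end relative to the database entry, ss marks a substitution, p5 or p3 names the arm of the precursor, and PC marks a predicted miRNA.

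Sequences that carry the differences described below are given here in DNA letters, as deposited. The first set is miR1432, with bases 2 to 8 (the seed) in capitals. It led the pair on complete nutrients among abundant sequences present in AuWH_C and AuCG_C alike. Both strands named first share a seed, the next is shifted by a base, and the last comes from the other arm of the hairpin.
ata-miR1432-5p_L+1R-1: aTCAGGAGagatgacaccgac
sbi-miR1432: cTCAGGAGagatgacaccgac
osa-miR1432-5p_L-1R+1: tCAGGAGAgatgacaccgaca
ata-miR1432-3p: tTGGTGTCacctcgcctgaac

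The second set is shown because it differed in the same direction in both pairs. The miR530 variants overlap with a shift of a base and so have different seeds.
tae-MIR530-p5: cTGCATTTgcacctgcaccta
osa-miR530-5p_R+1: tGCATTTGcacctgcacctac
tae-miR9773_R+1: tTTGTTTTtatgttattttgtgaag
tae-miR9676-5p: tGGATGTCatcgtggccgtaca
bdi-miR399a_1ss16AG: tGCCAAAGgagaattgccctg
gma-MIR5368-p5_2ss1TC21TC_1: cCCTGGGAttggctttgggcct
PC-5p-9811_380: tGGATGACacgtgacatttac

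The third set is shown because isomiRs of this kind had the largest falls without nitrogen among abundant sequences present in AuWH_N and AuCG_N alike. Here the capitals mark the bases beyond the shorter, more abundant miRNA that each isomiR contains.
osa-miR171b_R+4: tgattgagccgtgccaatatcACCA
bdi-miR171a_R+2: tgattgagccgcgccaatatcCA
gma-miR156a_L+1R+2: TtgacagaagagagtgagcacCA
bdi-miR156b-5p_R+4: tgacagaagagagtgagcacACCA
osa-miR393a_L+1R+2: ttccaaagggatcgcattgatCCA
gma-miR164a_R+3: tggagaagcagggcacgtgcaCCA
bdi-miR167c-5p_R+3: tgaagctgccagcatgatctgaCCA
mes-miR394a_R+2: ttggcattctgtccacctccCA

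Estimated depth over distinct miRNA sequences was 975071 reads in AuWH_C against 1477610 in AuCG_C, and 1318900 in AuWH_N against 992457 in AuCG_N. The control library was thus the deeper one on complete nutrients and the shallower one without nitrogen. The number of sequences above 0 moved the same way, with 816 in AuWH_C, 1010 in AuCG_C, 894 in AuWH_N and 738 in AuCG_N. Very few listed values were below 5 reads, so a sequence listed at 0 had fewer than about 5 reads in that library. The progeny labels were checked on the miR169 family, known to be lowered by nitrogen shortage, whose total was 23673 in AuWH_C and 27381 in AuCG_C and only 467 in AuWH_N and 752 in AuCG_N.

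No sequence passed the test for an effect of parental WH stress across both DBA Aurora pairs. limma called 0 of 596 (percent called 0) at an adjusted p of 0.05, with 23 at an unadjusted p under 0.05, and the lowest adjusted p was 0.688. The log2 change tested is the mean of both pair differences on the scale of log2(normalized count + 1). Its median over all tested sequences was -0.08, and its median standard error was 0.50. That error rests on how far the pairs of DBA Aurora and of L6 disagree, so a change confined to 1 nutrient treatment enlarges it. Family totals gave the same answer, with 0 of 103 called (percent called 0), 5 at an unadjusted p under 0.05 and a lowest adjusted p of 0.208. With the 4 DBA Aurora libraries fitted alone, where 1 residual degree of freedom remains and the spread is taken wholly from the trend over all sequences, limma called 17 sequences, 6 higher and 11 lower after WH parents.

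The pairs were therefore also compared one at a time by the rule of the study, Fisher's exact test at p under 0.05 with more than a 2-fold ratio, which compares libraries and not conditions. On complete nutrients 38 sequences were higher (6.38% of those tested) and 49 lower (8.22%) in AuWH_C than in AuCG_C, 14.6% together. Without nitrogen 56 were higher (9.4%) and 59 lower (9.9%) in AuWH_N than in AuCG_N, 19.3% together. The balance of directions depended on the filter. Among sequences at 100 or more in a library of the pair, 15 were higher and 11 lower in AuWH_C, and 7 higher and 25 lower in AuWH_N. Over all listed sequences it was 122 higher and 196 lower in AuWH_C, and 299 of the 461 past the rule were higher in AuWH_N. Across the pairs, 6 sequences were higher in both pairs (1.01%) and 11 lower in both (1.85%), while 7 passed in opposite directions. Over all 596 the log2 differences of the pairs had the same sign for 307 sequences and opposite signs for 252, and their Pearson correlation was 0.17, across sequences that share libraries and are not replicates. Of the 56 higher in AuWH_N, 21 were listed at 0 in AuCG_N, and of the 49 lower in AuWH_C, 12 were listed at 0 in AuWH_C, in each case the shallower library of the pair. The part of depth in them was not tested.

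**Figure D1:**
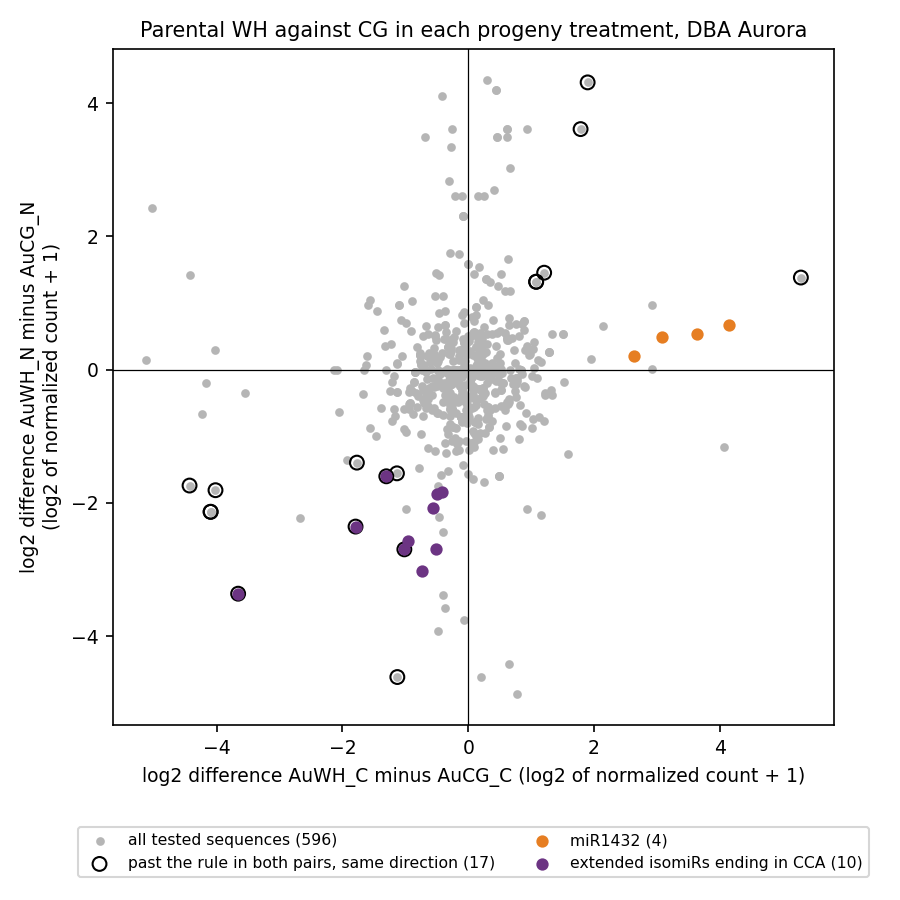
Each point is 1 of the 596 tested sequences, with its difference AuWH_C minus AuCG_C on the horizontal axis and AuWH_N minus AuCG_N on the vertical axis, both in log2(normalized count + 1). The 4 miR1432 sequences lie far to the right and near 0 vertically, the extended isomiRs ending in CCA lie far below 0 and mostly near the vertical axis, and 17 sequences (circled) pass the rule in the same direction in both pairs.

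miR1432 gave the 4 largest ratios of the complete nutrient pair among sequences present in AuWH_C and AuCG_C alike that reached 100 in either. This cereal family is known from rice, where it targets an acyl-CoA thioesterase gene, and it is predicted to target EF-hand calcium binding proteins. All 4 tested members were higher in AuWH_C than in AuCG_C by the rule. The most abundant, ata-miR1432-5p_L+1R-1, had 8109 normalized counts in AuWH_C against 962 in AuCG_C, and 10338 in AuWH_N against 7360 in AuCG_N. The outlying library among these was AuCG_C, while the other 3 were within 2-fold of each other. sbi-miR1432 had 2009 in AuWH_C against 113 in AuCG_C, and 510 in AuWH_N against 320 in AuCG_N. osa-miR1432-5p_L-1R+1 had 702 in AuWH_C against 55.5 in AuCG_C, and 900.4 in AuWH_N against 622 in AuCG_N. The opposite arm moved with them, as ata-miR1432-3p had 623 in AuWH_C against 99.3 in AuCG_C, and 900.4 in AuWH_N against 782 in AuCG_N. In all 4 sequences the WH value was above its CG partner in both pairs, and the rule was met on complete nutrients alone. The log2 ratios there were 4.16 for sbi-miR1432 (95% counting interval 3.89 to 4.43), 3.66 for osa-miR1432-5p_L-1R+1, 3.08 for ata-miR1432-5p_L+1R-1 (2.98 to 3.17) and 2.65 for the 3p arm (2.35 to 2.96). Without nitrogen they were between 0.20 and 0.67.

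The same 4 sequences ran the other way in the L6 pair on complete nutrients. sbi-miR1432 had 86.2 in L6WH_C against 1881 in L6CG_C, and ata-miR1432-5p_L+1R-1 had 706 in L6WH_C against 7417 in L6CG_C. The family total was 11461 in AuWH_C against 1230 in AuCG_C, and 971 in L6WH_C against 10455 in L6CG_C, so on complete nutrients the low library was from CG parents in DBA Aurora and from WH parents in L6. Without nitrogen L6 ran the same way as DBA Aurora, with a family total of 5557 in L6WH_N against 2421 in L6CG_N and sbi-miR1432 at 258 in L6WH_N against 70.2 in L6CG_N, a value below that of L6WH_C. For miR1432 on complete nutrients AuWH_C was thus nearer to L6CG_C, and AuCG_C nearer to L6WH_C. No sequence in the table checks the parental labels, and a difference between the genotypes and an exchange of the parental labels of 1 of them cannot be told apart in these files, which bears on the direction of every parental difference given here. As a family, miR1432 had a log2 parental change of 1.85 in DBA Aurora (SE 0.64, limma adjusted p = 0.279). The value rests on which pair is used, being 0.48 without AuWH_C or AuCG_C and 3.22 without AuWH_N or AuCG_N, where only 1 library a side remains.

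**Figure D2:**
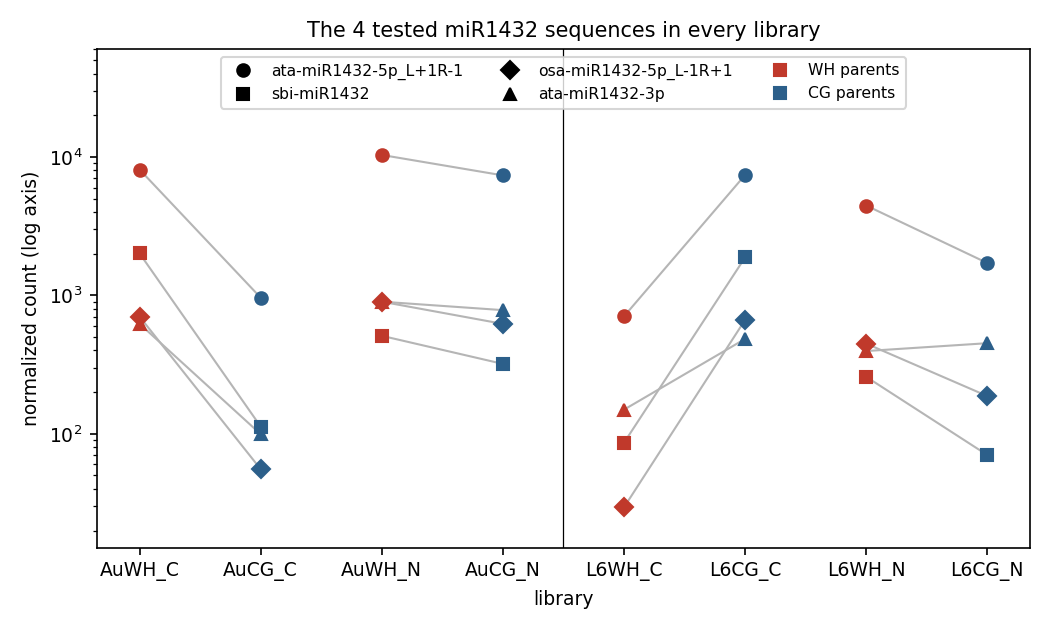
Normalized counts of the 4 tested miR1432 sequences in the 8 libraries, on a log axis, with lines joining the WH and CG libraries of a pair. In AuCG_C and L6WH_C the 4 sequences sit between 29.4 and 962, below their values in AuWH_C and L6CG_C, and the pairs without nitrogen lie closer together.

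Other sequences separated the complete nutrient libraries without doing so, or with the reverse sign, in the pair without nitrogen. Both arms of miR9664 were higher in AuWH_C. tae-MIR9664-p5 had 379 in AuWH_C against 96.7 in AuCG_C, and 1239 in AuWH_N against 1110 in AuCG_N. tae-miR9664-3p_L-1 had 1740 in AuWH_C against 839 in AuCG_C, and 3445 in AuWH_N against 2593 in AuCG_N. Both arms were highest in AuWH_N and lowest in AuCG_C among the DBA Aurora libraries. Unlike miR1432, the miR9664 total was higher on the WH side in L6 too on complete nutrients, with 6232 in L6WH_C against 2805 in L6CG_C. Without nitrogen it had 2712 in L6WH_N against 2787 in L6CG_N. ptc-MIR6478-p5_1ss6CT was also among the 5 largest ratios, with 138 in AuWH_C against 30.4 in AuCG_C, and 67.2 in AuWH_N against 42.3 in AuCG_N. On the lower side, tae-miR319_L-1R+1, of a family that targets TCP transcription factors of leaf growth, had 46.0 in AuWH_C against 149 in AuCG_C, and 228 in AuWH_N against 293 in AuCG_N. tae-MIR9774-p5 changed sides, with 77.6 in AuWH_C against 236 in AuCG_C, and 34.6 in AuWH_N against 17.2 in AuCG_N.

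Of the 49 sequences lower in AuWH_C, 32 were 23 to 25 nt long (65.3%), against 8 of the 38 that were higher (21.1%), beside 33.9% of all tested. In the pair without nitrogen these were 28 of the 59 lower (47.5%) and 20 of the 56 higher (35.7%) in AuWH_N. The median difference was -0.29 for the 202 tested sequences of 23 to 25 nt and 0.06 for the 381 of 20 to 22 nt on complete nutrients, and -0.12 and -0.06 without nitrogen, beside -0.05 and -0.06 over all tested. The longer class took 4.35% of counts in AuWH_C against 6.27% in AuCG_C, and 4.26% in AuWH_N against 4.57% in AuCG_N. Part of it is 1 sequence, the 25-nt tae-miR9773_R+1, and without it the shares were 3.67% in AuWH_C against 4.33% in AuCG_C. Families that resemble MITE transposons held 182 tested sequences, of which 9 were higher (4.95%) and 14 lower (7.69%) in AuWH_C, and 15 higher (8.24%) and 10 lower (5.49%) in AuWH_N, none of these shares above that of all tested sequences.

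A small group was lower after WH parents in both nutrient treatments. miR530, a family known in rice for its effect on grain size and panicle branching, had tae-MIR530-p5 at 485 in AuWH_C against 1066 in AuCG_C, and 131 in AuWH_N against 389 in AuCG_N. osa-miR530-5p_R+1 had 30.2 in AuWH_C against 106 in AuCG_C, and 14.3 in AuWH_N against 39.2 in AuCG_N. Each was lower after WH parents within both pairs, and both were lower without nitrogen than with it. The log2 parental change was -1.35 for tae-MIR530-p5 (SE 0.57) and -1.58 for osa-miR530-5p_R+1 (SE 0.44), both with a limma adjusted p of 0.977. The family total had -1.35 (SE 0.43, limma adjusted p = 0.208).

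tae-miR9773_R+1, the most abundant 25-nt sequence, had 8685 in AuWH_C against 25651 in AuCG_C, and 3842 in AuWH_N against 7068 in AuCG_N. The rule was met in the first pair and narrowly missed in the second, where the log2 ratio was -0.88 (95% counting interval -0.94 to -0.82). Its log2 parental change was -1.22 (SE 0.36, limma adjusted p = 0.977). tae-miR9676-5p had 141 in AuWH_C against 280 in AuCG_C, and 845 in AuWH_N against 1615 in AuCG_N. The ratio was nearly the same in both pairs, short of the rule in each, and gave a log2 parental change of -0.96 (SE 0.30, limma adjusted p = 0.977).

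miR399, which targets the phosphate regulator PHO2, showed lower values on the WH side as well. bdi-miR399a_1ss16AG had 161.7 in AuWH_C against 321 in AuCG_C, and 12.9 in AuWH_N against 58.5 in AuCG_N. osa-miR399d had 412 in AuWH_C against 593 in AuCG_C, and 12.2 in AuWH_N against 29.8 in AuCG_N. The family total gave a log2 parental change of -1.26 (SE 0.46, limma adjusted p = 0.291). ata-miR164c-3p, from the other arm of a family that targets NAC transcription factors, had 18.4 in AuWH_C against 52.8 in AuCG_C, and 8.15 in AuWH_N against 17.2 in AuCG_N. In the second pair its counts are few, and the counting interval of its log2 ratio ran from -2.60 to 0.37. bdi-miR5064_R+2_1ss1CT_1 was listed at 0 in AuWH_C against 16.1 in AuCG_C, and had 8.15 in AuWH_N against 39.2 in AuCG_N. sly-miR169a_R+4, an isomiR ending in CCA, met the rule as lower in both pairs, with 82.8 in AuWH_C against 206 in AuCG_C, and 11.2 in AuWH_N against 36.1 in AuCG_N.

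Fewer sequences were higher after WH parents in both pairs. The sequences annotated to miR5368, a name taken from soybean, led them. gma-MIR5368-p5_2ss1TC21TC_1 had 153 in AuWH_C against 71.6 in AuCG_C, and 252 in AuWH_N against 100.3 in AuCG_N. Both WH values were above both CG values, and its log2 parental change was 1.20 (SE 0.32, limma adjusted p = 0.977). gma-MIR5368-p5_1ss20TC, a shorter variant, had 67.1 in AuWH_C against 42.1 in AuCG_C, and 118 in AuWH_N against 51.7 in AuCG_N. gma-MIR5368-p3_1ss2GA had 69.7 in AuWH_C against 35.8 in AuCG_C, and 11.2 in AuWH_N with AuCG_N listed at 0. The family total had 0.88 (SE 0.37, limma adjusted p = 0.536). Among predicted miRNAs PC-5p-9811_380 was listed at 0 in AuCG_C and had 38.1 in AuWH_C, and it had 202 in AuWH_N against 76.8 in AuCG_N. PC-5p-42019_107 and hvu-miR1436_L+2R+1_1ss4CT also passed the rule in both pairs, at no more than 39.4 in any DBA Aurora library and at 0 in AuCG_N. In the pair without nitrogen alone, tae-MIR1128-p3_1ss10CT was higher, with 55.2 in AuWH_C against 77.0 in AuCG_C, and 111 in AuWH_N against 40.8 in AuCG_N, as was tae-MIR1128-p5_1ss7AG_1.

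**Figure D3:**
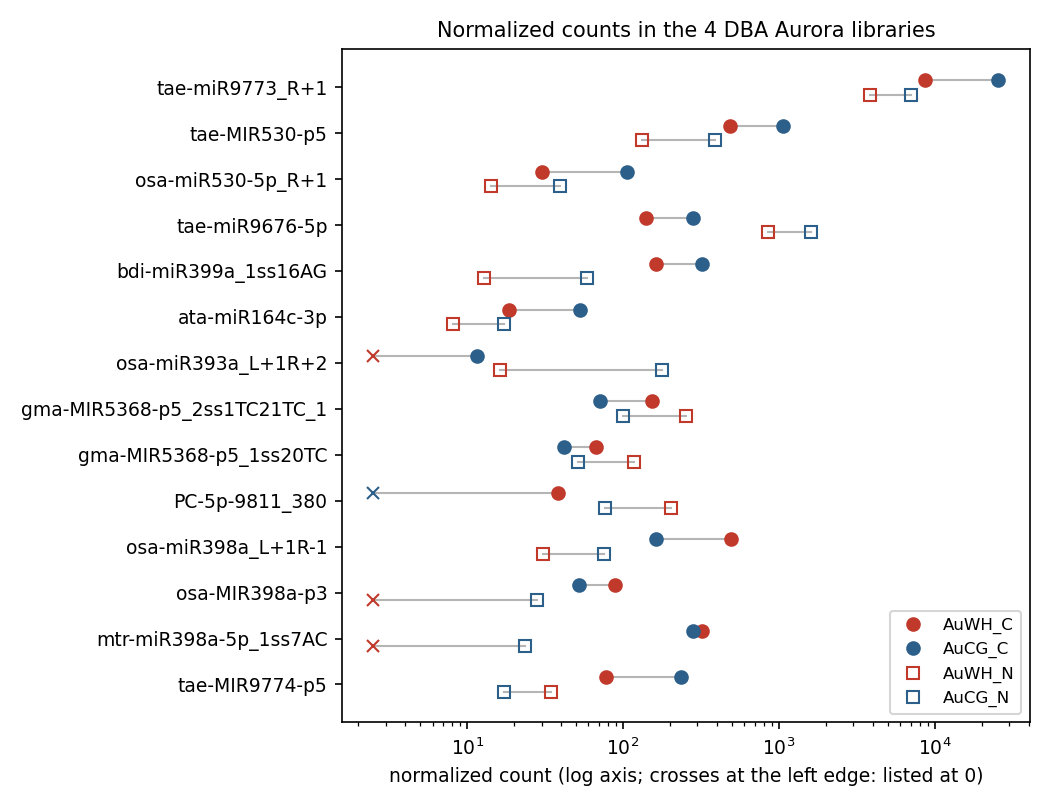
Normalized counts of 14 named sequences in the 4 DBA Aurora libraries, on a log axis, with filled circles for complete nutrients, open squares for no nitrogen, red for WH and blue for CG parents. The top 7 have red left of blue in both rows, the next 3 have red right of blue in both, and osa-miR398a_L+1R-1 and tae-MIR9774-p5 cross between rows.

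Without nitrogen the largest falls belonged to isomiRs with extra bases and a 3′ end of CCA. This ranking has the limits given for miR1432, that is, abundant sequences present in both libraries of the pair. Sequences listed at 0 in AuWH_N could differ more, such as osa-MIR398a-p3 with a log2 difference of -4.87. The 17 tested sequences that end in CCA include strands without added bases, such as ttu-miR160. Of the 17, 12 were lower in AuWH_N than in AuCG_N by the rule (70.6%) and none higher, against 9.9% lower over all tested. On complete nutrients 4 of the 17 were lower (23.5%) and 1 higher (5.88%), against 8.22% lower and 6.38% higher over all tested. Their median difference was -1.84 without nitrogen and -0.49 on complete nutrients. This list was drawn up with earlier results of these libraries known, so its direction is a description. The 12 isomiRs of the list that have added 3′ bases had 11 lower and none higher without nitrogen and a median of -2.22. By comparison, 61 tested isomiRs with added 3′ bases that do not end in CCA had 16 lower (26.2%) and 2 higher (3.28%) without nitrogen. Their median was -0.33.

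For 10 of the extended isomiRs ending in CCA the shorter miRNA inside the isomiR is also listed, which allows a ratio within each library. gma-miR156a_L+1R+2, from the family that represses SPL transcription factors in the juvenile phase, had 51.3 in AuWH_C against 104.7 in AuCG_C, and 235 in AuWH_N against 1533 in AuCG_N. That was 1.19% of bdi-miR156b-5p in AuWH_C against 3.44% in AuCG_C, and 3.65% in AuWH_N against 11.6% in AuCG_N. osa-miR171b_R+4, from the family that targets GRAS transcription factors, was 2.72% of bdi-miR171b in AuWH_C against 4.41% in AuCG_C, and 8.84% in AuWH_N against 45.3% in AuCG_N. Both isomiRs were highest in AuCG_N, alone and as a share. Over the 10 isomiRs the median share of the shorter miRNA was 1.04% in AuWH_C against 2.44% in AuCG_C, and 3.42% in AuWH_N against 7.82% in AuCG_N. The share was lower on the WH side for 9 of 10 on complete nutrients and for 10 of 10 without nitrogen.

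The shorter miRNAs differed less, with a median of -0.24 on complete nutrients and -0.40 without nitrogen over 8 of them. bdi-miR156b-5p itself had 4304 in AuWH_C against 3041 in AuCG_C, and 6441 in AuWH_N against 13185 in AuCG_N. It met the rule in the second pair alone. osa-miR393a_L+1R+2, an isomiR of the family that targets the TIR1 auxin receptors, had the lowest p of all tested sequences. It was listed at 0 in AuWH_C against 11.6 in AuCG_C, and had 16.3 in AuWH_N against 177 in AuCG_N, while ata-miR393-5p, the shorter miRNA, had 13428 in AuWH_C against 12869 in AuCG_C and 15874 in AuWH_N against 21143 in AuCG_N. Its limma adjusted p was 0.688, and its fitted change depends on the pseudocount because of the 0. The full isomiR was found in a hairpin of the table for 2 of the 10. In L6 the 10 summed to 773 in L6WH_N against 192 in L6CG_N, opposite to 1165 in AuWH_N against 5668 in AuCG_N. On complete nutrients L6 ran the same way as DBA Aurora, with sums of 114.6 in L6WH_C against 278.0 in L6CG_C.

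**Figure D4:**
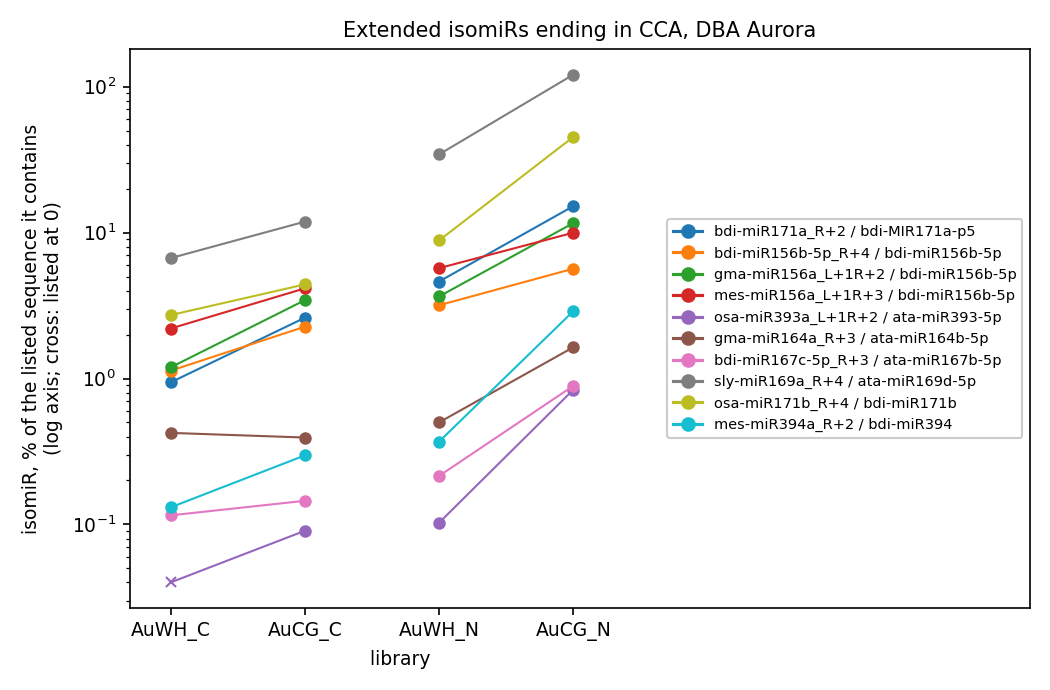
Each of 10 extended isomiRs ending in CCA as a percentage of the shorter miRNA it contains, in the 4 DBA Aurora libraries, on a log axis, with lines joining the WH and CG libraries of a pair. All 10 are highest in AuCG_N, and the lines rise toward CG in both pairs except for gma-miR164a_R+3 on complete nutrients.

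Copper and nutrient families also differed between the pairs. Their counts are read against the shares of all tested sequences past the rule, 6.38% higher and 8.22% lower in AuWH_C and 9.4% higher and 9.9% lower in AuWH_N. miR398 represses Cu/Zn superoxide dismutases and is raised by copper shortage. osa-miR398a_L+1R-1 had 489 in AuWH_C against 161.98 in AuCG_C, and 30.6 in AuWH_N against 75.2 in AuCG_N, so it passed the rule in opposite directions. Other strands of miR398a hairpins were listed at 0 in AuWH_N, where mtr-miR398a-5p_1ss7AC had 23.5 and osa-MIR398a-p3 28.2 in AuCG_N. tae-miR398_L-1R+1, one of the miRNAs the study followed, differed less, with 28.9 in AuWH_C against 17.0 in AuCG_C, and 117.1 in AuWH_N against 95.6 in AuCG_N. tae-MIR398-p5 had 90.7 in AuWH_C against 81.4 in AuCG_C, and 458 in AuWH_N against 345 in AuCG_N, short of the rule. The miR398 total was 1072 in AuWH_C against 651 in AuCG_C, and 606 in AuWH_N against 567 in AuCG_N, so the family as a whole was not lower in AuWH_N. Of the 9 tested sequences of the copper and redox list (miR397, miR398, miR408, miR528), 2 were higher (22.2%) and none lower in AuWH_C, and none higher and 3 lower (33.3%) in AuWH_N, shares that rest on very few sequences.

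The nutrient list (miR169, miR395, miR399, miR827) held 36 tested sequences, with none higher and 4 lower (11.1%) in AuWH_C, and 2 higher (5.56%) and 10 lower (27.8%) in AuWH_N. ata-MIR169d-p3, which the study followed, had 1989 in AuWH_C against 2789 in AuCG_C, and 22.4 in AuWH_N against 14.1 in AuCG_N, and did not pass the rule. miR827, which targets SPX-domain phosphate transporters, contributed 4 of these 10. Its main strand osa-miR827 did not pass the rule, with 8056 in AuWH_C against 8655 in AuCG_C, and 1431 in AuWH_N against 2441 in AuCG_N. The minor strand osa-miR827_1ss1TG had 80.2 in AuWH_C against 111 in AuCG_C, and 26.5 in AuWH_N against 127 in AuCG_N. Of the auxin list (miR160, miR167, miR390, miR393), 1 of 30 was higher (3.33%) and 2 lower (6.67%) in AuWH_C, near or below the background, and none higher and 7 lower (23.3%) in AuWH_N. ttu-miR160, which targets auxin response factors and ends in CCA, had 1905 in AuWH_C against 2282 in AuCG_C, and 2736 in AuWH_N against 5755 in AuCG_N. The other arm of miR167, ata-miR167b-3p, had 3474 in AuWH_C against 2383 in AuCG_C, and 8296 in AuWH_N against 9510 in AuCG_N, short of the rule in both pairs. Of the phase change list (miR156, miR172, miR529), 1 of 16 was higher and 1 lower in AuWH_C (6.25% each), and 1 higher (6.25%) and 6 lower (37.5%) in AuWH_N. These counts include the CCA isomiRs of the same families.

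The heat and drought list of 17 families held 139 tested sequences, of which 7 were higher (5.04%) and 11 lower (7.91%) in AuWH_C, close to the background, and 4 higher (2.88%) and 28 lower (20.1%) in AuWH_N. All 4 miR1432 members stand among the 7. The list had a median difference of -0.06 on complete nutrients and -0.27 without nitrogen. Sequences for leaf, meristem and flower development numbered 58, with none higher and 5 lower (8.62%) in AuWH_C, and 1 higher (1.72%) and 9 lower in AuWH_N. Neither list was separated from the sequences ending in CCA. Of the 17 tested sequences with that end, 12 were lower in AuWH_N, and their part in the counts of these lists was not tested. The 9 tested miR444 sequences, which target MADS-box genes of nitrate signalling in rice, and the 2 of miR168, which targets ARGONAUTE1, had no member past the rule in either pair. Over all tested 14.6% passed on complete nutrients and 19.3% without nitrogen, from which such small sets are not set apart. Neither phased siRNA trigger family (miR2118, miR2275) had a tested sequence.

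None of the 10 most abundant sequences passed the rule in either pair, beside 14.6% of all tested on complete nutrients and 19.3% without nitrogen. With so few sequences this does not set them apart from all tested. osa-miR396e-5p, of the family that represses growth regulating factors, had 212380 in AuWH_C against 181074 in AuCG_C, and 350010 in AuWH_N against 359438 in AuCG_N. osa-miR168a-5p had 120991 in AuWH_C against 110234 in AuCG_C, and 105990 in AuWH_N against 100551 in AuCG_N. The other miR168 arm, osa-miR168a-3p_L-3, was less even, with 69171 in AuWH_C against 113618 in AuCG_C, and 76327 in AuWH_N against 94013 in AuCG_N. ata-miR396c-5p had 50518 in AuWH_C against 34083 in AuCG_C, and 28235 in AuWH_N against 41114 in AuCG_N, with opposite signs. Of the 20 tested sequences of miR7757 and miR9674, both abundant in cereals, 1 was higher in AuWH_C (5%) and 1 lower in AuWH_N (5%). Over all tested these shares were 6.38% and 9.9%.

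Strands of 1 hairpin were also set side by side. Of 143 tested pairs of a 5p and a 3p strand, 30 had at least 1 strand past the rule on complete nutrients. In 4 both strands passed in the same direction, the miR1432 and miR9664 pairs among them, and in 1 they passed in opposite directions. Without nitrogen the numbers were 44, 5 and 2. Of all tested sequences 14.6% passed on complete nutrients and 19.3% without nitrogen. Some strands enter more than 1 pair, and whether strands of a hairpin pass together more often than unrelated strands was not tested.

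The parental differences of DBA Aurora and L6 tended to run in opposite directions. Among the 224 sequences with a mean of 100 or more, the Pearson correlation between the DBA Aurora and L6 differences was -0.47 on complete nutrients and -0.39 without nitrogen. It was -0.24 and -0.15 over all 596, and -0.34 and -0.25 over the 210 that are neither miR1432 nor end in CCA. These are correlations across sequences, with no replicate behind them. The L6 difference had the opposite sign for 28 of the 38 sequences higher in AuWH_C (73.7%) and 28 of the 49 lower (57.1%), beside 56.5% of all tested. It had the opposite sign for 29 of the 56 higher in AuWH_N (51.8%) and 40 of the 59 lower (67.8%), beside 51.5% of all tested. On complete nutrients depth ran opposite in the genotypes too, since AuCG_C and L6WH_C were the deeper libraries (1477610 and 1493220 estimated reads). Without nitrogen the WH library was the deeper one in both genotypes, with 1318900 in AuWH_N and 2305750 in L6WH_N. The part of depth was not tested. limma called 0 of 596 sequences for a difference in parental change between the genotypes (percent called 0), with 23 at an unadjusted p under 0.05 and a lowest adjusted p of 0.462. The sequence of lowest p was gma-MIR5368-p5_2ss1TC21TC_1, which had 75.4 in L6WH_C against 211 in L6CG_C, and 124 in L6WH_N against 337 in L6CG_N. The difference between genotypes, DBA Aurora minus L6, was 2.65 on the log2 scale (SE 0.46). Of families, miR1432 had 2.96 (SE 0.91), miR399 -2.01 (SE 0.65) and miR9773 -1.56 (SE 0.52), each with an adjusted p of 0.205.

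**Figure D5:**
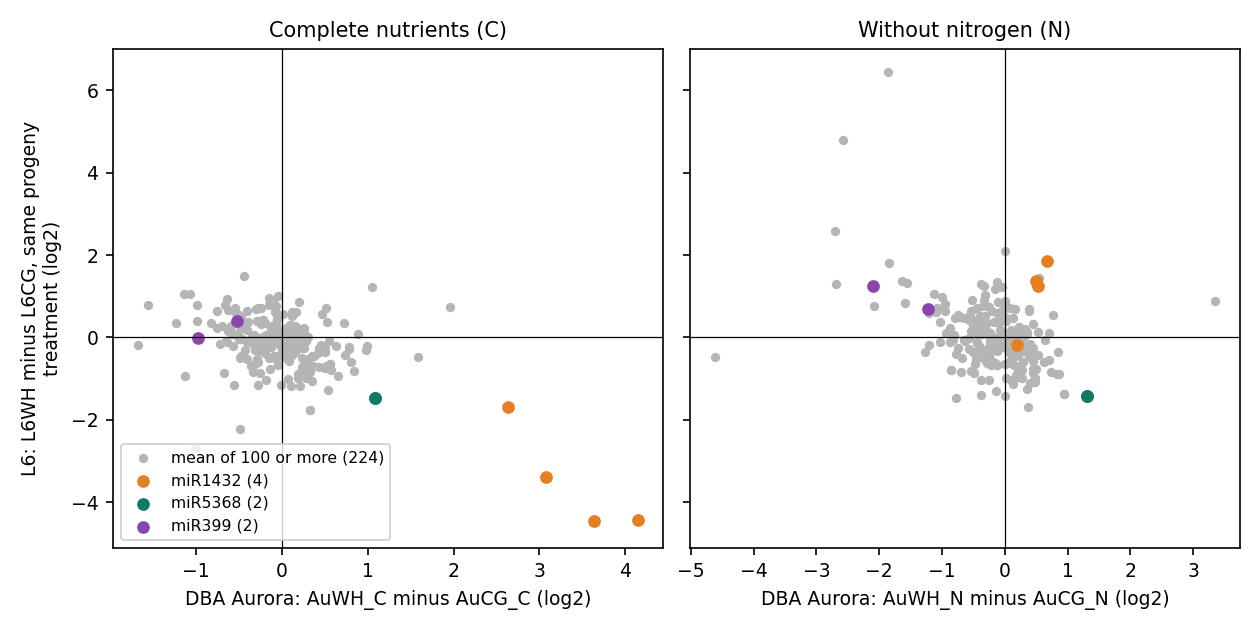
Parental differences (WH minus CG, in log2 of normalized count + 1) of DBA Aurora on the horizontal axis and of L6 on the vertical axis for the 224 sequences with a mean of 100 or more, with complete nutrients on the left and no nitrogen on the right. miR1432 lies at the lower right on complete nutrients, and miR5368 at the lower right in both panels, where 2 sequences of equal values coincide.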

How the data were processed

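Small RNA of 8 durum wheat libraries (Illumina, 50-nt single reads) was processed by the authors, who removed adapters and other RNA classes, ran ACGT101-miR with miRBase 22.1 and the Svevo.v1 genome for annotation, and predicted hairpins with RNAfold. The deposited signal is a normalized reads count per entry; the sources used here do not give its scaling factor. The 1532 entries were reduced to 1473 distinct sequences, and 108 tested sequences share all values with another.

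The test was limma 3.58.1 (R 4.3.3, eBayes with trend) on log2(normalized count + 1), fitted to all 8 libraries with genotype, progeny treatment within genotype and parental treatment within genotype (2 residual degrees of freedom). p-values were adjusted by Benjamini-Hochberg over all tested sequences or families. With 1 library per condition, they rest on how far the pairs within each genotype disagree, not on spread between replicate libraries. Fisher's exact test used rounded normalized counts against the remainder of the library, with a log2 ratio over 1. The value of 1 read in each library (0.895 to 1.57 in DBA Aurora) was taken as the step of low values, at least 95.0% of which were whole multiples within 0.02. It gave estimated reads and the 95% Clopper-Pearson intervals, which cover counting error only. Scripts were tested on simulated data.

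Members, lists and tests were chosen with earlier results of these data known. Sequences were named, and in part printed, from the 5 of lowest p in each direction, the 5 families of lowest p, the 5 largest ratios each way in a pair at 100 or more, the 3 highest at 0 in 1 library, those differing most between pairs or genotypes, the most abundant and those of each list, and 7 miRNAs of the study. The miR9664, miR399 and minor miR827 sequences, tae-MIR530-p5 and those printed beside CCA isomiRs were added after their values were seen. No genome was used, so no positions are given.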

Additional observations from a re-analysis of the deposited data

How the results depend on the processing

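The count of sequences called for the parental change stayed at 0 under 12 of 13 alternatives (model form, 3 scalings, pseudocount 5, filters, entries with equal values, each library left out, range 0 to 0), with 9 to 60 at an unadjusted p under 0.05. The exception was the fit of the 4 DBA Aurora libraries alone, with 17 sequences and 3 families (miR1432, miR530, miR9773) called, for which limma estimated infinite prior degrees of freedom. Families called ranged from 0 to 1 when a library was left out, the 1 being miR1432 without AuWH_N or without AuCG_N (1 library a side), and were 0 otherwise. The count for a difference between genotypes stayed at 0. Of the 15 sequences and 5 families recomputed, none changed sign, but sequences whose pairs have opposite signs are not among these, and miR1432 (0.48 to 3.22) varied with the library left out. Scaling to equal totals moved the median log2 change of all sequences to 0.05, against -0.08 as deposited. Past the pair rule were 318 sequences without the filter on low values and 26 at 100 or more on complete nutrients, and 461 and 32 without nitrogen, since more or fewer sequences were tested. Other tests and scalings gave 80 to 89 and 105 to 116. Choices made after seeing the data, sequences above 0 in both libraries (71 and 86) and equal values counted once (82 and 103), stayed within 1.5 times. Count models on recovered reads (edgeR, DESeq2) were not run, because a small part of the low values were not whole multiples of the value of 1 read. No paired analysis by replicate number was possible because each condition has 1 library; the pairing is by progeny treatment. Depth limits low sequences: fewer than about 5 reads were listed as 0.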
